A study of Mus musculus with 8 samples.

Results

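Replication-dependent histone genes are the compact, tandem copies that supply the bulk of histone protein for newly made DNA. Protein-coding genes of GENCODE M21 (mouse, GRCm38/mm10) whose symbols begin with Hist1h, Hist2h, Hist3h or Hist4h were taken, which gave 67 of 21951 protein-coding genes. The Hist1 cluster on chromosome 13 holds 54 of them, the Hist2 cluster on chromosome 3 holds 10, the Hist3 locus on chromosome 11 holds 2 (Hist3h2a and Hist3h2ba), and the Hist4 locus on chromosome 6 holds Hist4h4 alone. By encoded protein they comprise 6 linker histone H1 genes, 18 H2A, 18 H2B, 12 H3 and 13 H4 genes. Most are short, with 48 of the 67 under 1000 bp and a median of 539 bp against 17403 bp over all protein-coding genes.

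The readout was H3K27ac, histone H3 acetylated at its lysine 27 and a mark of active promoters and enhancers, measured by ChIP-seq with the Millipore 17-683 antibody. Cells were Oli-neu, an immortalised mouse line of the oligodendrocyte lineage whose origin is labelled as progenitors of the embryo, strain C57BL/6. Proliferating cells were kept in medium with T3 at 340 ng/ml, L-thyroxine at 400 ng/ml, bFGF at 10 ng/ml and PDGF-BB at 1 ng/ml. Differentiating cells came from the same expansion and then had growth factors withdrawn, with 1 µM of the Erb receptor inhibitor PD174265 present, for 1 day per the labels. The study's methods give 2 days for differentiated Oli-neu cells. Each state is 1 library from 1 cell line, deposited as 1 list of peaks without read counts, so no difference between the states has a replicate check and no test was run. The 6 ATAC-seq samples of the series, after control or Padi2 siRNA, were not analysed here.

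In the cell, replication-dependent histone genes are transcribed in S phase at nuclear bodies organised around NPAT. Their mRNAs end in a stem-loop bound by SLBP and carry no poly(A) tail. H2A, H2B, H3 and H4 form the core of the nucleosome, and H1 binds the linker DNA where it enters and leaves. Many H2A and H2B genes stand back to back and share the DNA between their start sites. When a precursor leaves the cell cycle, replication-dependent histone supply declines and variant histones, whose genes are polyadenylated and scattered, continue to be made.

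Promoter sequences of 5 loci are printed to show the DNA at start sites that differ in their peaks. They are members near the tallest peaks in both lists (Hist4h4 and Hist2h2aa2) and 3 pairs. One pair is under a peak in both lists (Hist1h2an and Hist1h2bp) and one in the proliferating list alone (Hist1h2ah and Hist1h2bk). The testis-type pair Hist1h2ba and Hist1h2aa is under no peak. The peak near Hist2h2aa2 lay downstream of its start, 251 bp away in proliferating and 363 bp in differentiating cells. Its printed stretch was therefore under no peak in either list. The pair Hist1h2ah and Hist1h2bk was chosen after its values were seen. Coordinates are chr6:136804432-136804631 (minus strand), chr3:96240375-96240574 (minus strand), chr13:21787249-21787460, chr13:22035644-22035820 and chr13:23934157-23934436 (plus strand for the 3 pairs) of GRCm38, read from its RefSeq sequence. Each begins at the first base outside both the GENCODE and the RefSeq starts of a gene, so 16 bases next to the GENCODE start of Hist4h4 and 98 next to that of Hist2h2aa2 are not printed. At the pairs, in the order named, 30 and 0, 75 and 49, and 0 and 25 bases next to the left and right starts are not printed. Capitals mark matches, on either strand, to 3 promoter elements. The TATA element was searched as the letters TATAAA, the element bound by NF-Y was searched as the letters CCAAT, and the octamer bound by Oct-1 was searched as the letters ATTTGCAT.
Hist4h4 upstream: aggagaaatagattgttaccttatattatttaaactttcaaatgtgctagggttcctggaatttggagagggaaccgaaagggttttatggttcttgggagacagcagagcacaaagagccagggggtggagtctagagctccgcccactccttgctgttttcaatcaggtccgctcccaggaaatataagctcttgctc
Hist2h2aa2 upstream: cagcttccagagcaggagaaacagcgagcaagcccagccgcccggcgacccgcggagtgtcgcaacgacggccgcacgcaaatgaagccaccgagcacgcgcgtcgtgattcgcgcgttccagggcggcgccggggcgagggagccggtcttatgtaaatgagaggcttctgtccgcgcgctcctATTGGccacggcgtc
Hist1h2an/Hist1h2bp between starts: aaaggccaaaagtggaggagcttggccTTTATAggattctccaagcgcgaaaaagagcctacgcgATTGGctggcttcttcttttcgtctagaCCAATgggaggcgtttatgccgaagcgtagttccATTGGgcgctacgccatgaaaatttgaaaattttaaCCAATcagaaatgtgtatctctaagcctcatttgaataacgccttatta
Hist1h2ah/Hist1h2bk between starts: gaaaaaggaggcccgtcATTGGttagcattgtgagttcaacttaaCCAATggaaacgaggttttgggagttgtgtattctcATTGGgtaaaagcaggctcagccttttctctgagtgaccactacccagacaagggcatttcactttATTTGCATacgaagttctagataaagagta
Hist1h2ba/Hist1h2aa between starts: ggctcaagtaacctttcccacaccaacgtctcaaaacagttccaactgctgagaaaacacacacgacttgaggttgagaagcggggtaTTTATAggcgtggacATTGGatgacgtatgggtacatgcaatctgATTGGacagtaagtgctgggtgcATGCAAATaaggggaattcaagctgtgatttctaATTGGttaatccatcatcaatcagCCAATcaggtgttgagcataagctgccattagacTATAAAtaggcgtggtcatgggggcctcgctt

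The upstream stretch of Hist4h4, which had the highest fold of the family in the proliferating list and the next after Hist2h3c2 and Hist2h2aa2 in the differentiating list, held no match to the 3 motifs. That of Hist2h2aa2, itself under no peak, held 1 CCAAT box. The unmarked testis-type pair held 2 TATA boxes, 4 CCAAT boxes and 1 octamer. The pair marked in both lists held 1 TATA box and 4 CCAAT boxes, and the pair marked in the proliferating list alone held 3 CCAAT boxes and 1 octamer. In the 250 bases directly upstream of the GENCODE start, which include the bases not printed, TATAAA was found at Hist2h2aa2, Hist1h2ah and Hist1h2bk as well, and Hist4h4 had none of the 3 motifs there.

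The 3′ stem-loop identifies the family at the other end of the gene. A word of 16 bases was sought in the 300 bases after the stop codon, made of a stem of 6 bases that begins GG, a loop of 4 bases that begins TTT, and the reverse complement of the stem. It was found in 63 of the 67 genes (94.0%) and in 10 of 21871 other protein-coding genes (0.0457%). It began 24 to 61 bases after the coding end, with a median of 33. Hist2h2be, Hist1h2an, Hist1h3g and Hist1h4a had no such word there. Capitals mark the word in 3 members.
Hist4h4 (chr6:136803993-136804018, minus strand): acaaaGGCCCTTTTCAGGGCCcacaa
Hist2h2aa2 (chr3:96239779-96239804, minus strand): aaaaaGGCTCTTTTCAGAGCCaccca
Hist1h2ba (chr13:23933725-23933750, minus strand): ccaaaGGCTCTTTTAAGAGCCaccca

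Stem sequence split by class. All 12 H4 genes with a stem-loop had stems that began GGCCC (10 genes) or GGTCC (2 genes), and the 51 genes of the other classes all began GGCTC. The most common word, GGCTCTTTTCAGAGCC, stood in 41 genes.

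H3K27ac peaks stood within 1000 bp of most histone gene start sites, and of more of them in proliferating than in differentiating cells. A gene is called marked here when a listed peak lies within 1000 bp of its annotated transcription start site (TSS). In the proliferating list 50 of 67 histone genes were marked (74.6%, exact 95% binomial interval 62.5 to 84.5), where 26.9% of all protein-coding genes were. In the differentiating list 37 were marked (55.2%, 42.6 to 67.4), where 31.1% of all protein-coding genes were. The histone count was thus lower in the differentiating list while the genome-wide share was higher. The intervals cover counting error only, and because neighbouring genes share peaks they are too narrow. The TSS itself was under a peak for 31 histone genes in proliferating and 23 in differentiating cells (46.3% and 34.3%). For 27 genes the sequence around the TSS is at least 80% unique in the genome (counted below). Of these, 13 (48.1%) and 11 (40.7%) were marked.

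Taken gene by gene, 35 histone genes were marked in both lists (52.2%, against 21.6% of all protein-coding genes) and 52 in either (77.6%, against 36.4%). The proliferating list alone marked 15 histone genes, or 22.4% of the 67, while 5.28% of all protein-coding genes were marked that way. The differentiating list alone marked 2, or 2.99%, while 9.54% of all protein-coding genes were. Of the 50 histone genes marked in proliferating cells, 70% were also marked in differentiating cells, against 80.4% of all genes marked in proliferating cells. Of the 37 marked in differentiating cells, 94.6% were also marked in proliferating cells, against 69.4% over all genes. Over the remaining protein-coding genes of chromosome 13, 17.2% were marked in proliferating and 22.8% in differentiating cells.

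These counts rest on peaks of modest strength. With peaks of −log10 q of at least 3, 13 histone genes (19.4%, against 11.4% of other protein-coding genes) were marked in proliferating cells and 3 (4.48%, against 13.8%) in differentiating cells. With −log10 q of at least 5, the counts were 1 (1.49%, against 3.67%) and 3 (4.48%, against 4.63%). The histone share was thus below that of other genes in proliferating cells at 5. In differentiating cells it was already below at 3, and at 5 the shares were close.

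**Figure D1:**
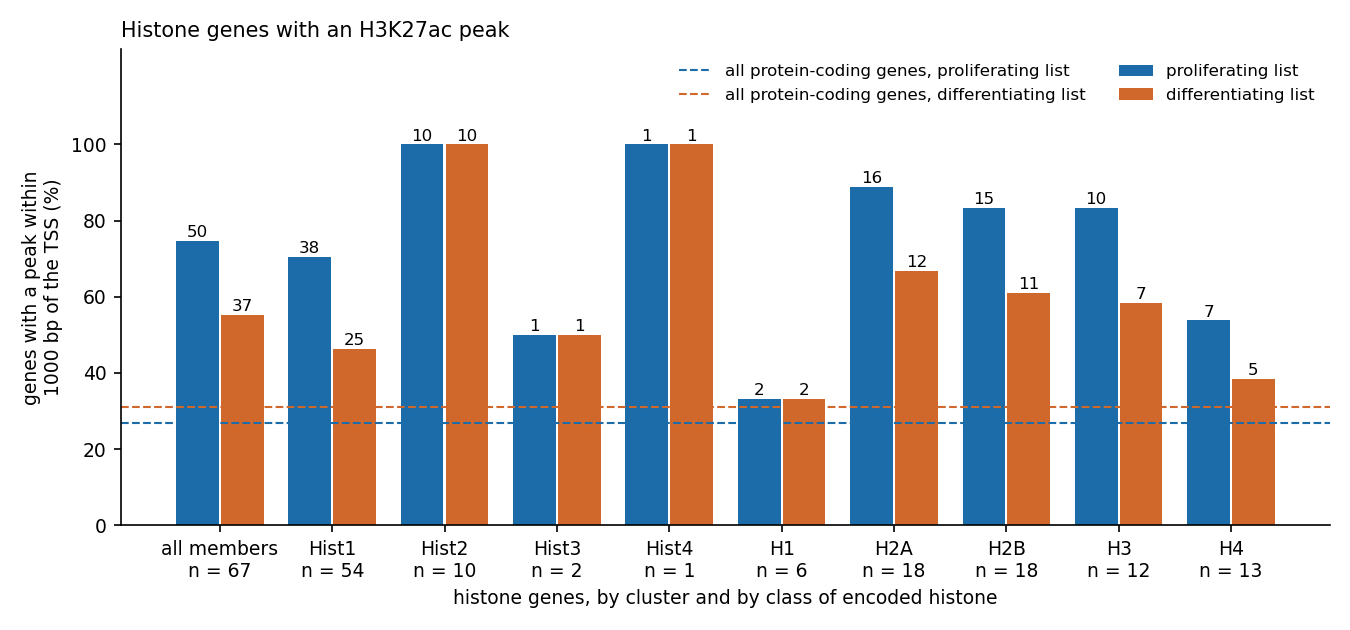
Percent of histone genes with an H3K27ac peak within 1000 bp of the TSS (vertical axis) in the proliferating and differentiating lists, for all members, each cluster and each histone class (n genes under each name, number marked above each bar). Dashed lines give the share over all protein-coding genes, 26.9% and 31.1%. All 10 Hist2 genes were marked in both lists, and H1 stood lowest among the classes at 2 of 6. Bars have no error since each list is 1 library.

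The classes of core histone differed in how many of their genes were marked. Of 18 H2A genes, which encode the partner of H2B in the nucleosome's outer dimers, 16 were marked in proliferating and 12 in differentiating cells. H2B followed with 15 and 11 of 18. H3, whose tail carries the lysine measured here, had 10 and 7 of 12. H4, the partner of H3, had 7 and 5 of 13 (53.8% and 38.5%), and 5 H4 genes were unmarked in both lists. H1 had 2 of 6 in each list (33.3%), Hist1h1c and Hist1h1e. Over all protein-coding genes 26.9% and 31.1% were marked. In every core class the differentiating count was the lower, and for H1 the counts were equal. Because H2A and H2B genes often share a peak, their counts are not independent of each other. The classes also differed in how much of the sequence around the TSS is unique in the genome (counted below). The median unique share was 66.4% for H2A, 67% for H2B, 75.2% for H3, 86.7% for H4 and 99% for H1. The part of repeated sequence in the class counts was not tested.

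The gap between the lists lay in the Hist1 cluster. Hist1 had 38 of 54 genes marked in proliferating and 25 in differentiating cells. It was wider where the sequence around the TSS is less unique in the genome (uniqueness is counted below). Of 21 Hist1 genes with windows at least 80% unique, 8 (38.1%) and 6 (28.6%) were marked. Over all protein-coding genes 26.9% and 31.1% were. Of the 33 Hist1 genes with less unique windows, 30 (90.9%) and 19 (57.6%) were marked. The part of repeated sequence in the Hist1 gap was not tested. All 10 Hist2 genes were marked in both lists, as was Hist4h4. At the Hist3 locus, Hist3h2a was marked in both lists and Hist3h2ba in neither.

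Hist1 genes fall into 4 blocks when runs are split at gaps of over 100 kb. Block 1 (chr13:21715763-21837530, 18 genes) had 16 genes marked in proliferating and 11 in differentiating cells. Block 2 (chr13:22035164-22043676) had all 5 genes marked in proliferating cells and 0 in differentiating cells, where the nearest peak to their start sites was 201558 to 209204 bp away. Block 3 (chr13:23531050-23764406, 29 genes) had 17 and 14. Block 4 (chr13:23933773-23934851), the testis-type pair Hist1h2ba and Hist1h2aa, had 0 and 0.

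Peaks covered 8.15% of block 1 in proliferating and 3.88% in differentiating cells. They covered 26.3% and 0% of block 2, and 5.18% and 4.04% of block 3. The Hist2 cluster (chr3:96219865-96270132) was 13.3% and 11.2% covered. Within the Hist1 blocks the peaks stood almost wholly at histone start sites. In block 3, 10 of 11 proliferating peaks and 8 of 10 differentiating peaks lay within 1000 bp of a member's TSS, and in blocks 1 and 2 every peak did. The DNA within that distance makes up 20.2% of block 1, 59% of block 2 and 19.1% of block 3, so the block 2 count says little. Hfe, the iron-regulating gene inside block 3, was unmarked in both lists.

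The DNA between the blocks was nearly free of peaks. Between blocks 2 and 3 lie 1487 kb with 40 protein-coding start sites, 36 of them vomeronasal receptor genes. There, 1 peak in proliferating cells and 2 in differentiating cells covered 0.018% and 0.0937% of the sequence. Zfp322a was the sole gene of this stretch marked in proliferating cells, and no gene was marked in differentiating cells.

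The 67 genes drew on few peaks. There were 27 distinct peaks at histone start sites in proliferating cells, 17 of them shared by 2 or 3 members, and 20 in differentiating cells, 13 of them shared. Fold enrichment over background ran from 2.73 to 4.94 (median 3.51) in proliferating and from 2.78 to 4.31 (median 3.16) in differentiating cells. The whole lists had medians of 3.33 over 28924 peaks and 3.13 over 27965. Peaks at other protein-coding start sites had medians of 3.63 and 3.44, above those of the histone genes in both lists. Histone peaks were wide, with medians of 1298 and 1061 bp, against 822 and 878 bp at other start sites and 652 and 755 bp over the lists.

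Most histone peaks had a counterpart in the other list. Of the 27 proliferating peaks, 19 (70.4%) overlapped a differentiating peak, against 77.5% of the 5121 peaks at other protein-coding start sites. Of the 20 differentiating peaks, 19 (95%) overlapped a proliferating peak, against 67% of 5927. For the 35 genes marked in both lists, fold enrichment was the higher in proliferating cells for 26 and in differentiating cells for 9. Genes under a shared peak are counted more than once there. Peaks at other start sites also had the higher median fold in proliferating cells (3.63 and 3.44), and the same gene count was not made over other genes. Depth and background differ between the lists, and their part in these counts was not tested. The paper reports more uniquely mapped reads for the differentiating than for the proliferating library. Ranked by −log10 q within its own list, the peak stood higher in proliferating cells for 24 of the 35 and in differentiating cells for 11.

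**Figure D2:**
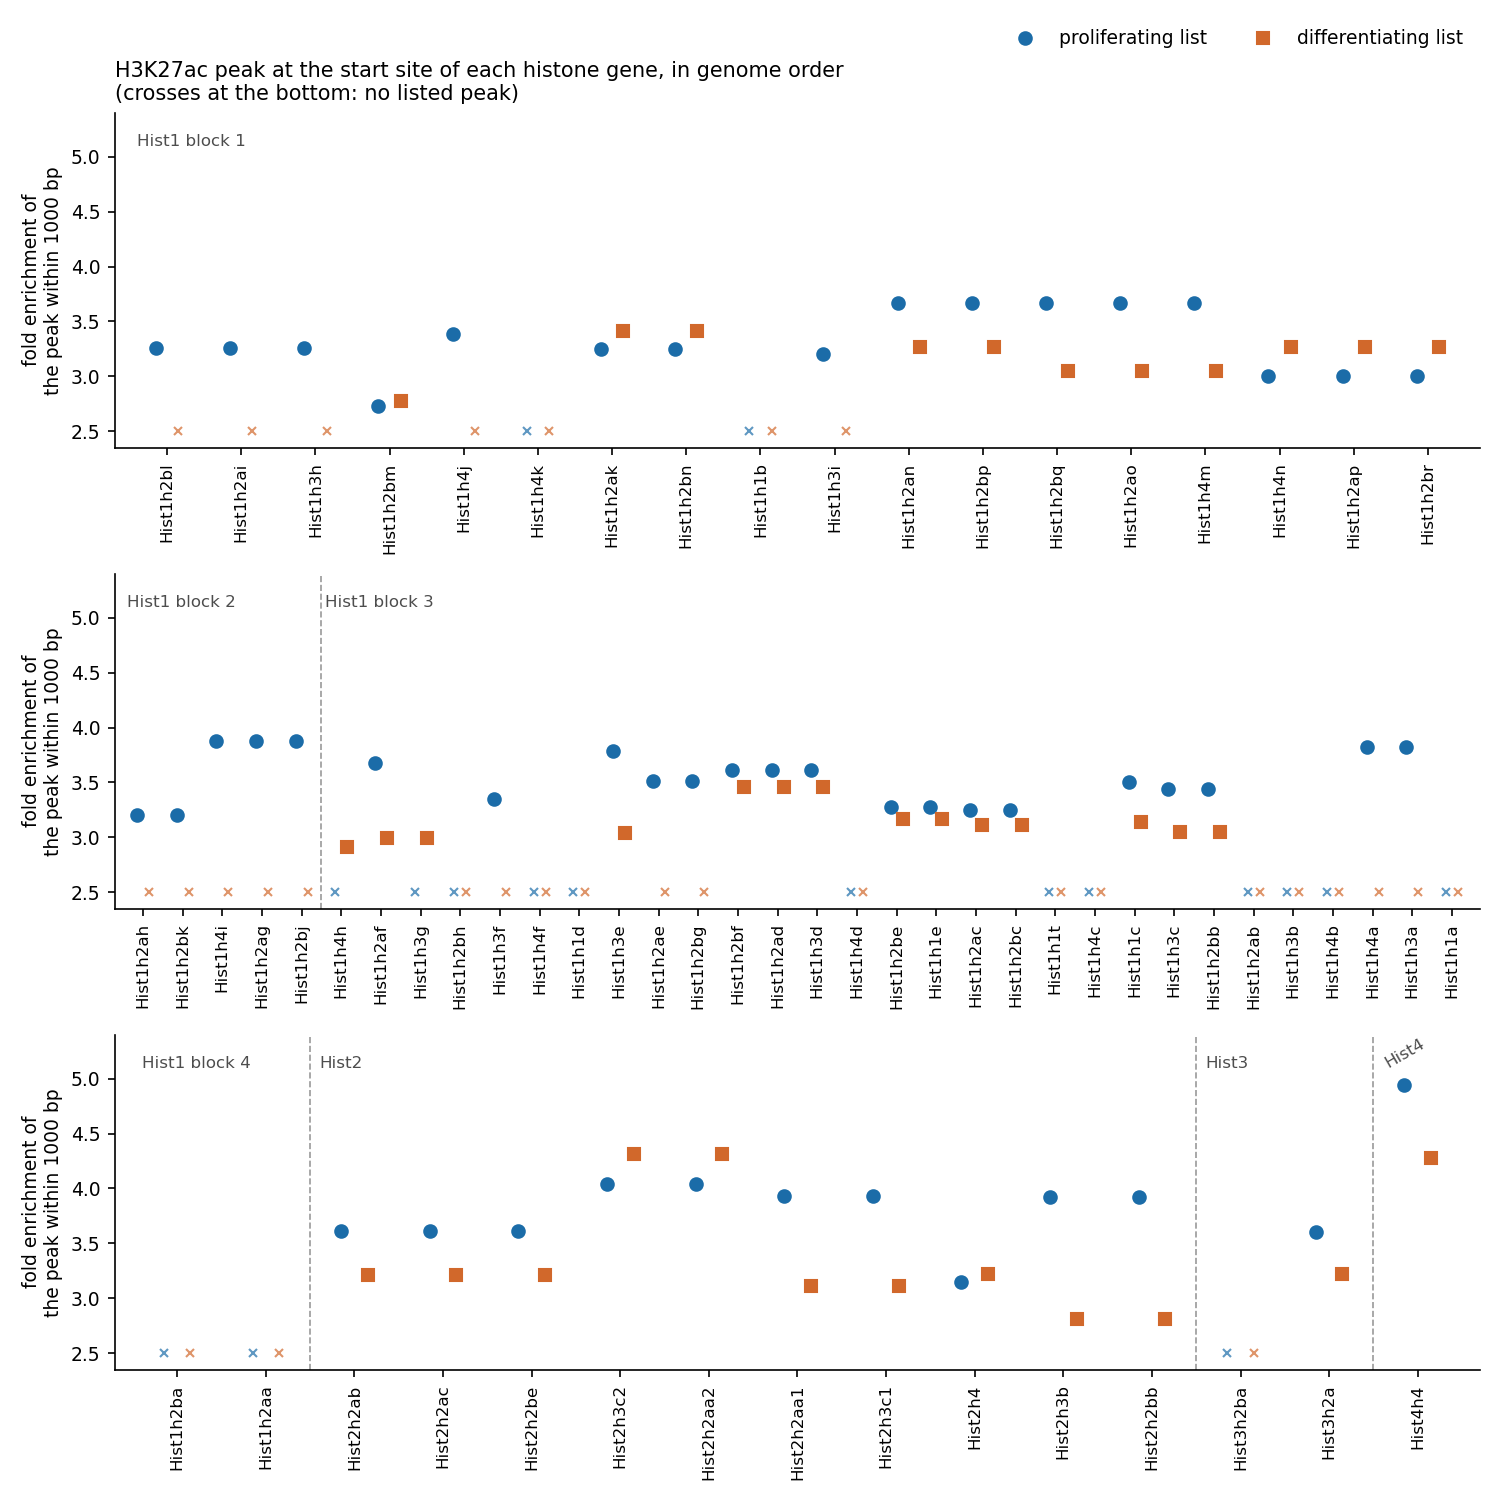
Fold enrichment over background (vertical axis, linear and starting above 0) of the highest peak within 1000 bp of the TSS of each of the 67 histone genes, in genome order within blocks. Circles are the proliferating list, squares the differentiating list, and crosses at the bottom mark genes with no listed peak. Neighbours under a shared peak have the same value. Hist4h4 stood highest in proliferating cells at 4.94, and block 2 had circles only.

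Hist4h4, an H4 gene and the sole member at its locus (chr6:136801553-136804415, minus strand), had the most strongly called peak of the family. Its fold enrichment was 4.94 in proliferating and 4.28 in differentiating cells, with −log10 q of 7.28 and 8.66. Those values put it at the 98.4th and 98.7th percentile of all peaks by −log10 q. The peak was 862 bp wide in proliferating and 1126 bp wide in differentiating cells, lay over the TSS in both, and began at the same base.

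Hist2 genes followed. The H3 gene Hist2h3c2 and the H2A gene Hist2h2aa2 shared a peak of fold 4.04 in proliferating and 4.31 in differentiating cells, with −log10 q of 4.73 and 5.86. Their near copies Hist2h2aa1 and Hist2h3c1 shared one of 3.93 and 3.11. Hist2h3b and Hist2h2bb (H3 and H2B) shared one of 3.92 and 2.81. The first pair was higher in differentiating cells, and the other 2 pairs were higher in proliferating cells.

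Hist2h2ab, Hist2h2ac and Hist2h2be (2 H2A and 1 H2B) stood together under a peak of fold 3.61 in proliferating and 3.21 in differentiating cells. It also lies over the TSS of Bola1, a gene of another family, so the mark cannot be assigned to the histone genes alone. Hist2h4 (H4) had 3.15 and 3.22, its peak over the TSS in proliferating cells and 225 bp from it in differentiating cells. Hist3h2a (H2A) had 3.60 and 3.22, under a peak that also covers the TSS of Trim17. Hist3h2ba (H2B) lay 5363 and 4857 bp from the nearest peak.

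Strong calls came mainly from outside Hist1. At −log10 q of at least 3 in proliferating cells, the 13 genes were 9 of the Hist2 genes, Hist4h4 and the Hist1 genes Hist1h2bq, Hist1h2ao and Hist1h4m. The 3 genes at that level in differentiating cells were Hist4h4, Hist2h3c2 and Hist2h2aa2. In differentiating cells no Hist1 gene lay near a peak of that strength. Over other start sites, 13.5% of proliferating and 14.8% of differentiating peaks reached −log10 q of 5, where 1 of 27 and 2 of 20 histone peaks did.

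Within Hist1, 23 genes were marked in both lists. The highest differentiating fold among them belonged to Hist1h2bf, Hist1h2ad and Hist1h3d (H2B, H2A and H3), which shared a peak of 3.61 in proliferating and 3.46 in differentiating cells. That peak was 263 bp wide and covered no member's TSS in proliferating cells, and was 999 bp wide and covered the starts of Hist1h2bf and Hist1h2ad in differentiating cells. Hist1h2an and Hist1h2bp (H2A and H2B) shared one of 3.67 and 3.27, centred near both starts in either list. Hist1h2ak and Hist1h2bn, another such pair, had 3.25 and 3.41, and Hist1h2ac and Hist1h2bc had 3.25 and 3.11. The pair Hist1h2ak and Hist1h2bn was the higher in differentiating cells, and the others named here were the higher in proliferating cells.

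Hist1h3e (H3) had 3.79 in proliferating and 3.04 in differentiating cells, and Hist1h2af (H2A) had 3.68 and 2.99, the widest gaps among the Hist1 genes marked in both lists. Hist1h3c and Hist1h2bb (H3 and H2B) shared a peak of 3.44 and 3.05. Hist1h2bm (H2B) had the lowest proliferating fold of the family, 2.73, and 2.78 in differentiating cells. Of the marked linker histone genes, Hist1h1c had 3.50 and 3.14, its peak over the TSS in proliferating cells and 386 bp from it in differentiating cells. Hist1h1e had 3.28 and 3.17, its peak 333 and 229 bp from the TSS.

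The 15 genes marked in proliferating cells alone were all in Hist1 and stood under 8 distinct peaks of fold 3.20 to 3.88. Block 2 gave 5 of them. Hist1h2ah and Hist1h2bk (H2A and H2B) shared a peak of fold 3.20 and −log10 q 1.57. Hist1h4i, Hist1h2ag and Hist1h2bj (H4, H2A and H2B) shared one of 3.88 and 2.91.

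Block 1 gave 5 more. Hist1h2bl, Hist1h2ai and Hist1h3h (H2B, H2A and H3) shared a peak of fold 3.26 that lay over the TSS of Hist1h3h and 665 to 944 bp from the other 2. Hist1h4j (H4) had 3.39 and Hist1h3i (H3) 3.20. Each of these start sites was at least 3666 bp from the nearest differentiating peak.

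The last 5 came from block 3. Hist1h2ae and Hist1h2bg (H2A and H2B) shared a peak of fold 3.51, and Hist1h4a and Hist1h3a (H4 and H3) shared one of 3.82 with −log10 q of 2.98. Hist1h3f (H3) had 3.35. The distance from these start sites to the nearest differentiating peak ran from 1770 bp at Hist1h4a to 8271 bp at Hist1h3f. The median percentile of these genes' peaks within the proliferating list was 69.4, against 77.8 for the genes marked in both lists.

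Marked in differentiating cells alone were Hist1h4h (H4, fold 2.91, −log10 q 1.92) and Hist1h3g (H3, fold 2.99, −log10 q 1.89). Hist1h3g stood at the end of a wide peak shared with Hist1h2af, which was also marked in proliferating cells at fold 3.68. The nearest proliferating peak to Hist1h3g was 1219 bp away, just outside the window, and that to Hist1h4h was 2761 bp away.

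In neither list was a peak found at 15 genes. They were the linker histone genes Hist1h1a, Hist1h1b, Hist1h1d and Hist1h1t, the H2A genes Hist1h2aa and Hist1h2ab, the H2B genes Hist1h2ba, Hist1h2bh and Hist3h2ba, the H3 gene Hist1h3b, and the H4 genes Hist1h4b, Hist1h4c, Hist1h4d, Hist1h4f and Hist1h4k. Some missed the window narrowly. In proliferating cells Hist1h2bh was 1232 bp, Hist1h1a 1321 bp and Hist1h1d 1947 bp from a peak.

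The testis-type genes had no peak in their windows. Hist1h2ba and Hist1h2aa, which encode H2B and H2A of the male germ line, were the farthest members from a peak in proliferating cells. They lay 67710 and 67404 bp from the nearest proliferating peak and 48144 and 48450 bp from the nearest differentiating peak, nearer than the block 2 genes were in that list. Hist1h1t, the testis linker histone, lay 10581 and 11333 bp away although it sits inside block 3. Its neighbour Hist1h4c, which is not testis-type, lay 13221 and 13973 bp away. An absent peak means only that none was listed, since the lists hold no counts from which a lower limit could be set.

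Peaks sat over histone start sites and on both sides of them. The TSS itself was under a peak for 31 of 67 histone genes in proliferating and 23 in differentiating cells, or 46.3% and 34.3%, against 15.9% and 20.3% of other protein-coding genes. The share was highest 400 bp upstream of the TSS, at 52.2% and 38.8%, whereas over other genes it was highest 200 bp downstream, at 19% and 23.2%. The histone maximum was shallow. In proliferating cells the share was 49.3% at 50 bp downstream, and in differentiating cells it was 35.8% at 100 bp downstream. At 3000 bp upstream the shares were 2.99% in both lists.

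Divergent pairs are part of this profile. Back-to-back start sites within 1000 bp of each other made 13 pairs, 12 of them of an H2A and an H2B gene and 1 of an H2B and an H3 gene (Hist1h2bh and Hist1h3f), 176 to 660 bp apart. A peak lay on the DNA between the starts in 9 pairs in proliferating and 7 in differentiating cells, and covered both starts in 8 and 7. Both genes were marked in 11 and 7 pairs. Of the 26 paired genes 23 were marked in proliferating and 14 in differentiating cells, and of the 41 others 27 and 23. At the TSS, 65.4% and 53.8% of paired genes and 34.1% and 22% of the others were under a peak. For genes outside pairs the share was highest upstream of the TSS, 43.9% at 400 bp in proliferating and 34.1% at 550 bp in differentiating cells. For paired genes the highest share, 65.4% and 53.8%, was also that at the TSS.

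**Figure D3:**
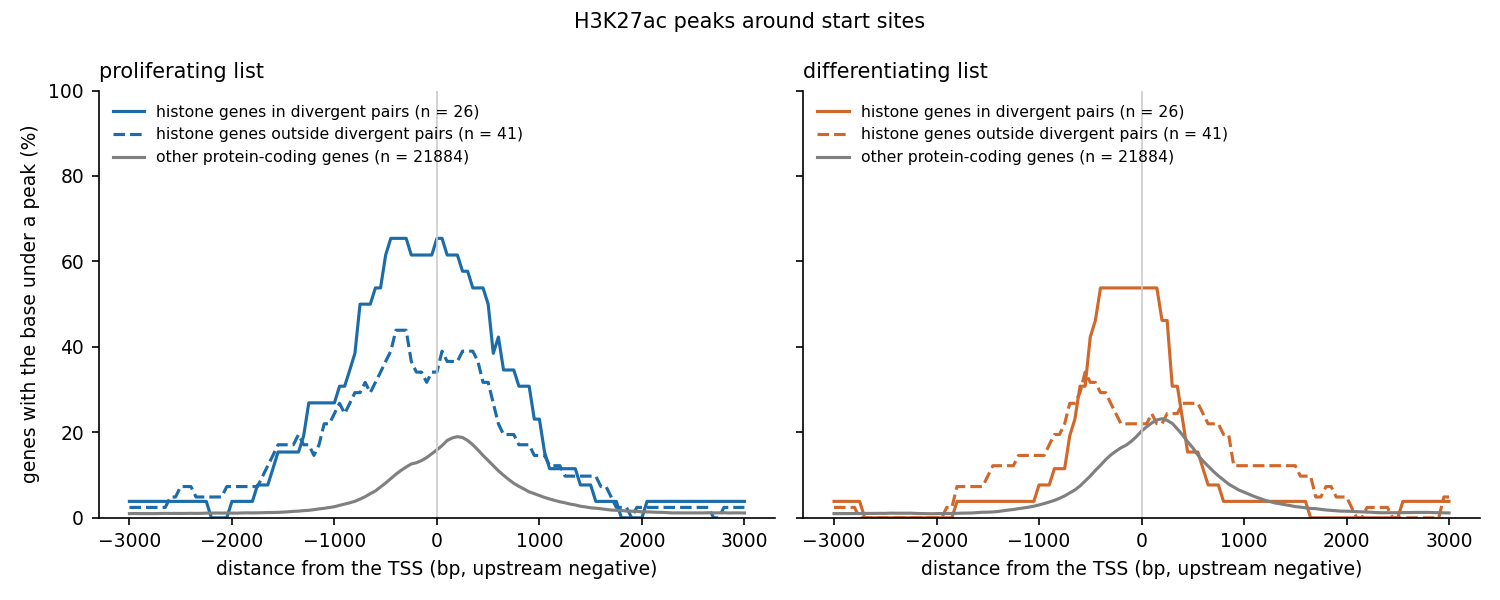
Percent of genes whose base at a given distance from the TSS lies under a peak (vertical axis), from 3000 bp upstream to 3000 bp downstream in the direction of transcription. The left panel is the proliferating and the right panel the differentiating list. Paired histone genes formed the tallest curves (65.4% and 53.8% at the TSS), and other protein-coding genes peaked 200 bp downstream at 19% and 23.2%.

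Some peaks lie on sequence that is repeated within the family. In the 2001 bases centred on each TSS, the percent of 32-base words found once in the genome was counted. It was 0% at Hist1h2bq, Hist1h2ao, Hist1h2ap and Hist1h2br, 4.21% at Hist1h4m and 4.26% at Hist1h4n. In Hist2 it was 19.4% at Hist2h3c1, 20.4% at Hist2h3c2, 40.6% at Hist2h2aa2 and 43.4% at Hist2h2aa1. All 10 of these genes were marked in both lists, although the authors kept only reads that mapped to 1 place.

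The Hist1 copies are an inverted repeat, chr13:21796612-21812409 against chr13:21831532-21847304, with 99.747% identity over 15799 aligned bases, 13 mismatches and 27 gap bases. Reads of either copy can hardly be told apart. Their peaks read 3.67 in proliferating and 3.05 in differentiating cells at Hist1h2bq, Hist1h2ao and Hist1h4m, and 3.00 and 3.27 at Hist1h4n, Hist1h2ap and Hist1h2br. The order between the states was opposite at the 2 copies. The Hist2 copies, chr3:96238462-96240573 against chr3:96245258-96247365, match over 2112 bases at 99.574%, and there too the order was opposite, 4.04 and 4.31 against 3.93 and 3.11.

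Uniqueness moved with the calls. Windows at least 80% unique belonged to 27 genes, of which 13 (48.1%) were marked in proliferating and 11 (40.7%) in differentiating cells. Of the 40 genes with less unique windows, 37 (92.5%) and 26 (65%) were. The median share of unique words was 66.2% for genes marked in both lists, 67.3% for those marked in proliferating cells alone and 89.3% for those marked in neither. Among the 27 genes the excess over other protein-coding genes was smaller (26.7% and 31.1% of those were marked). Those other genes were not filtered by uniqueness. The part of repeated sequence in the counts was not tested.

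**Figure D4:**
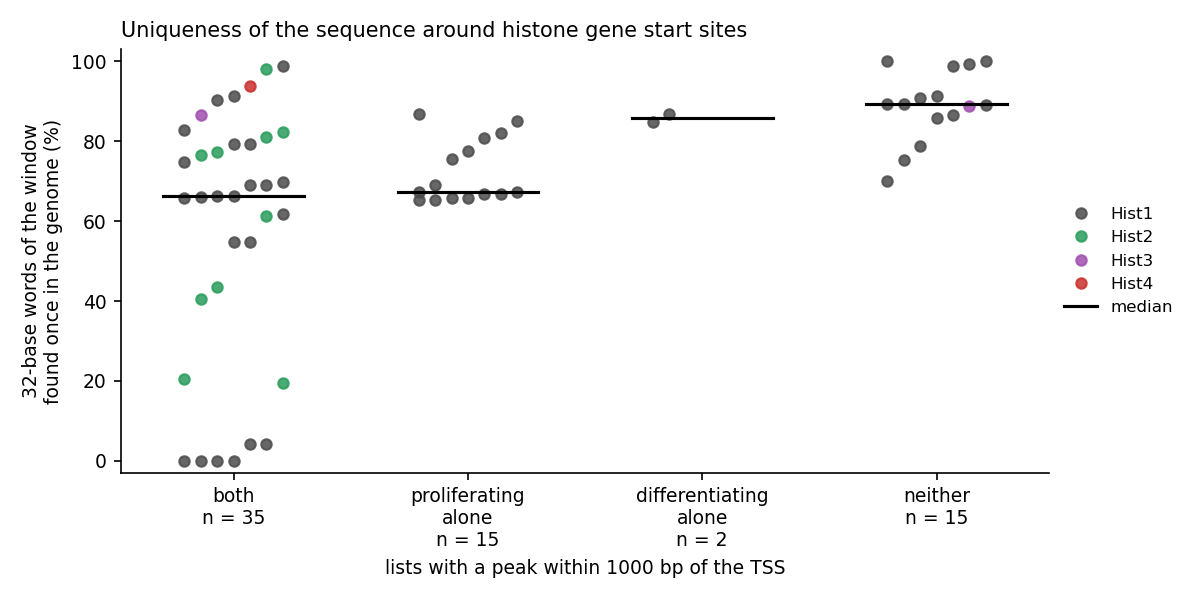
Percent of 32-base words in the 2001 bases centred on the TSS that occur once in the genome (vertical axis), for each histone gene, grouped by the lists in which it was marked and coloured by cluster. Black lines are medians: 66.2% for both, 67.3% for proliferating alone and 89.3% for neither. Points under 50% belong to 10 genes, all marked in both lists.

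In 2 members the annotated TSS lies over 1000 bp from the coding start. The TSS of Hist1h2be (H2B) lies 35168 bp from its coding start, and its mark of fold 3.28 and 3.17 is a peak beside the linker histone gene Hist1h1e. With windows placed on the start codon, Hist1h2be was not marked in proliferating cells and Hist1h1d, whose TSS is 1828 bp from its coding start, was. The differentiating calls were the same 37 genes. For some other members, such as Hist1h2bl, Hist1h2an and Hist2h2bb, the annotated TSS is the coding start itself. The part of such starts in the peak positions and the motif counts was not tested.

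Promoter motifs followed the class of histone. In the 250 bases upstream of the TSS, TATAAA on either strand was found in 34 of 67 histone genes (50.7%, against 11.4% of other protein-coding genes) and CCAAT in 54 (80.6%, against 35.9%). ATTTGCAT was found in 15 (22.4%, against 1.39%), of which 7 were H2A and 8 H2B genes. All 18 H2A and all 18 H2B genes held CCAAT, where 4 of 13 H4 genes did. AAACACA, the H1 box, was found in 4 of 6 H1 genes and 8 of the 67 in all (11.9%, against 5.64%). The windows of back-to-back genes overlap, so a pair can count the same letters in both genes.

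Motif counts are given by call. Among the 52 genes marked in either list, 25 (48.1%) held TATAAA, 43 (82.7%) CCAAT and 12 (23.1%) ATTTGCAT. Among the 15 marked in neither, the counts were 9 (60%), 11 (73.3%) and 3 (20%). AAACACA was found in 4 of the 52 (7.69%) and 4 of the 15 (26.7%), and those 15 include 4 of the 6 H1 genes. The stem-loop was found in 48 of the 52 and in 15 of the 15. The upstream GC content had a median of 44.4% over histone genes and 54% over other genes. The medians were 44.2% for genes marked in either list and 44.4% for those marked in neither.

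**Figure D5:**
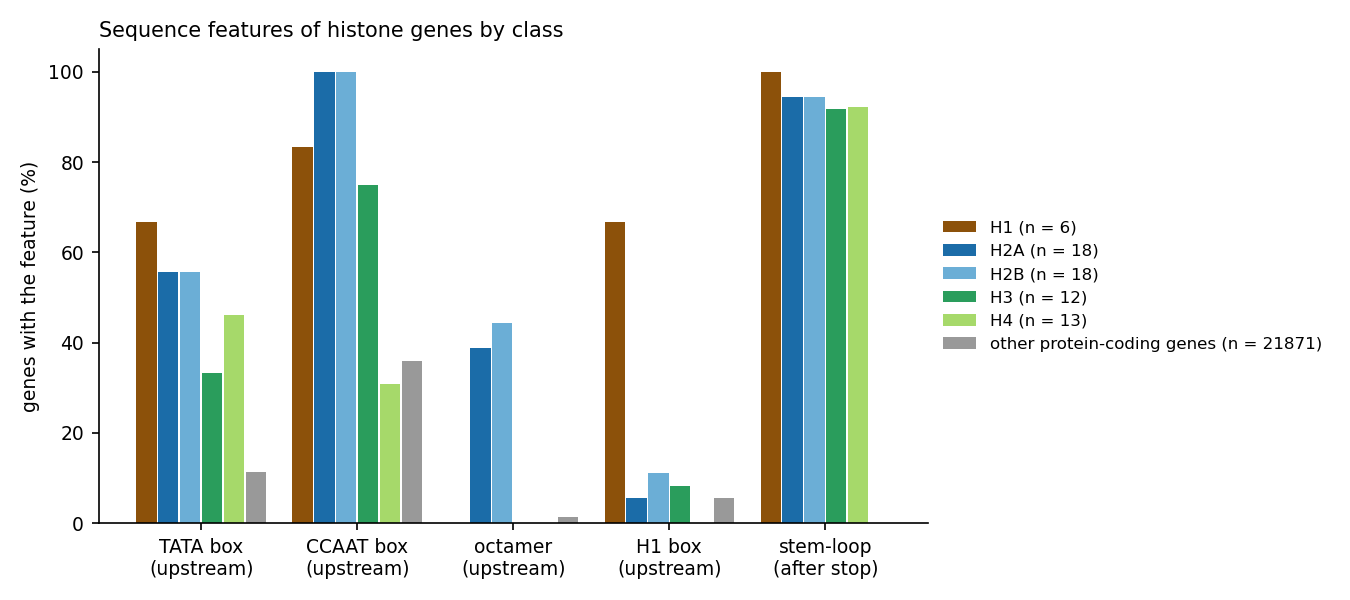
Percent of genes (vertical axis) with each motif in the 250 bases upstream of the TSS, or with the stem-loop in the 300 bases after the stop codon, by histone class and for other protein-coding genes (n in the key). CCAAT reached 100% in H2A and H2B, and the stem-loop stood at 91.7% to 100% in every class against 0.0457% elsewhere.

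Genes that regulate or process histone transcripts were looked up in the same way. Of 24 such genes 9 were marked in proliferating and 10 in differentiating cells, 37.5% and 41.7%, where 26.9% and 31.1% of all protein-coding genes were. Slbp, which binds the stem-loop, had one of the strongest peaks, with fold 4.16 and 3.85 and −log10 q of 7.65 and 7.45. Also marked in both lists were Pou2f1, which encodes Oct-1 (3.80 and 3.64), the histone chaperone gene Asf1a (3.66 and 3.35), the processing factor gene Cpsf2 (4.66 and 4.35), and the S-phase kinase and cyclin genes Cdk2 (4.31 and 2.96) and Ccna2 (3.46 and 2.97).

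The G1/S cyclin genes Ccne1 (3.55) and Ccne2 (3.21) and Gon4l (4.31) were marked in proliferating cells alone. Marked in differentiating cells alone were Chaf1b (3.48), Cpsf3 (3.58), E2f1 (3.25) and Lsm11 (2.71). Of the 24 genes, 13 (54.2%, against 36.4% of all protein-coding genes) were marked in either list and 11 in neither. Those 11 were Npat, Casp8ap2, Hinfp, Lsm10, Zfp473, Asf1b, Chaf1a, Cstf2, Eri1, Nasp and Sympk.

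Variant histone genes, which are expressed outside S phase too, were looked up as well. Of 11, 6 were marked in proliferating and 8 in differentiating cells (54.5% and 72.7%, against 26.9% and 31.1% of all protein-coding genes), the same order as over all genes. H3f3a (H3.3, 3.64 and 3.35), H2afz (H2A.Z, 4.09 and 3.01), H2afv (2.88 and 3.68), Cenpa (2.92 and 2.85), H1f0 (3.79 and 3.54) and H1fx (3.10 and 3.88) were marked in both lists. H2afx (4.48) and H2afy2 (3.17) were marked in differentiating cells alone, and H2afj, H2afy and H3f3b in neither. The replication-dependent genes had the opposite order, with no test of the difference.

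Marker genes were looked up beside the label of the line. Of 10 oligodendrocyte-lineage markers, 5 were marked in proliferating and 4 in differentiating cells. These shares are 50% and 40%, against 26.9% and 31.1% of all protein-coding genes. Cnp, Cspg4, Olig1 and Sox10 were marked in both lists, and Olig2 in proliferating cells alone. Mbp, Mag, Mog, Pdgfra and Nkx2-2 were marked in neither. No astrocyte marker of 5 and no microglial marker of 5 was marked, and of 5 neuronal markers Map2 and Syt1 were marked in differentiating cells alone. The neuronal share in differentiating cells, 40%, equalled that of the oligodendrocyte markers, so these lists did not separate the 2 types there.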

How the data were processed

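H3K27ac ChIP-seq of 1 proliferating and 1 differentiating Oli-neu library was used. Per the labels and the study's methods, the authors aligned reads with Bowtie2 2.1.0 to GRCm38/mm10, kept uniquely mapped reads, removed duplicates with SAMtools, called broad peaks with MACS2 2.0.10 and removed blacklisted regions with bedtools. The deposited lists give each peak's position, with fold enrichment, −log10 p and −log10 q as text and no read counts, so depth per peak is unknown. Their weakest q was 0.0995 and 0.0983, whereas the study's methods give a q cutoff of 0.05. With peaks of q of at most 0.05, the histone genes marked were also 50 in proliferating and 37 in differentiating cells. Peaks of MACS2 on repeated sequence can lose reads when multiply mapped reads are dropped.

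GENCODE M21 genes of the same build were used. A gene's TSS is the outermost annotated start in its direction of transcription, and a peak with 1 base or more within 1000 bp marks the gene. Where several peaks qualified, the one of highest fold is given. Percentiles rank −log10 q within a list. Intervals are exact (Clopper-Pearson, 95%). No test was run between states. Uniqueness counts 32-base words on both strands of the genome, and copies were aligned with blastn 2.17.0. Motifs and stem-loops were searched in the RefSeq sequence of GRCm38. Python 3.11.15, pandas 2.3.3 and scipy 1.17.1 were used, and peak lookup was tested on simulated data.

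The members, gene lists and settings were chosen with earlier results of these data known. Genes were named by a rule: those under the 5 start sites of highest fold in each list, those marked in 1 list alone or in neither, the Hist2, Hist3, Hist4 and testis-type genes, and the marked genes of each list. Other genes named for repeated sequence or annotation were chosen after their values were seen. A further marker of the oligodendrocyte lineage is not reported here.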

Additional observations from a re-analysis of the deposited data

How the results depend on the processing

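The main counts were 50 histone genes marked in proliferating cells, 37 in differentiating cells, 35 in both and 52 in either. Across 16 other settings, 45 of 64 counts stayed within 1.5 times the main count. The differentiating count was the lower in 15 settings and the higher in 1, −log10 q of at least 5. In the order proliferating, differentiating, both and either, that setting gave 1, 3, 1 and 3. A −log10 q of at least 3, added after seeing the data, gave 13, 3, 3 and 13. Counting each group of overlapping windows once gave 27, 20, 19 and 28 of 38 regions. Only the 27 genes with windows at least 80% unique gave 13, 11, 9 and 15, and the shares were lower too (48.1% and 40.7% in the 2 lists, against 74.6% and 55.2%), for which the cause was not tested. Requiring the TSS base itself under a peak gave 31, 23 and 17, while either was 37. The share of histone genes was above that of other genes in 57 of the 64 counts, where uniqueness filters were applied to histone genes alone. The 7 exceptions were the 4 counts at −log10 q of at least 5, the differentiating and both counts at −log10 q of at least 3 (4.48% against 13.8% and 7%), and the differentiating count over whole genes (41.8% against 43.5%). Windows on the start codon and windows at least 50% unique were also added after seeing the data, and gave 50 and 37, and 40 and 27. No paired analysis was possible because each state is 1 library, so no replicate could be left out.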

Other observations

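Pseudogenes that carry the same symbols were not members. Hist1h2al, a processed H2A pseudogene on chr13:51202727-51203065, far from the Hist1 blocks, stood under a proliferating peak of fold 5.31 (chr13:51202525-51202892), above the 4.94 of Hist4h4, and under no differentiating peak. Hist1h2aj shared the peak of Hist1h2bm, at fold 2.73 in proliferating and 2.78 in differentiating cells. Hist3h2bb-ps shared that of Hist3h2a, at 3.60 and 3.22.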
